A study of Homo sapiens with 12 samples.

Results

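JUN, JUNB, JUND, FOS, FOSB, FOSL1 and FOSL2 encode the Jun and Fos subunits of the transcription factor AP-1, and ATF3, EGR1 and IER2 encode other products of the immediate early response. These 10 genes were chosen by symbol from the 33093 genes of the count table, with earlier results of these data known. All 10 passed the filter on low counts, which left 14383 genes to be tested. Their expression was measured by RNA-seq in HEK293T cells, a human embryonic kidney line that carries the SV40 large T antigen. There were 4 groups of 3 independently generated samples: wild type (WT) cells left untreated, WT cells given 10 ng/ml TNFα for 3 h, NFKB1 S80A cells left untreated, and NFKB1 S80A cells given the same TNFα treatment. NFKB1 encodes the p105 precursor of the NF-κB subunit p50, and S80A replaces a p50 serine with alanine at the gene's own locus. The allele was introduced with CRISPR/Cas9 and a single-stranded donor oligonucleotide, followed by growth from single cells after serial dilution. How many clones entered the RNA-seq is not given in the sources used here, so the effect of the allele and of growth from a single cell cannot be told apart. The deposited description of treated WT replicate 3 repeats that of replicate 2. The sample titles were used to tell them apart, and their columns hold different totals (19316503 and 19120630 reads). Between 15624878 and 20889577 reads were counted per sample.

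AP-1 is a dimer of basic leucine zipper (bZIP) proteins: Jun proteins pair with one another or with Fos proteins, whereas Fos proteins need a Jun partner to bind DNA. The dimers bind the TPA response element (TRE) and the related cyclic AMP response element (CRE). TNF receptor signalling reaches AP-1 mainly through the JNK, p38 and ERK kinases, and reaches NF-κB through the IKK complex. Immediate early genes are transcribed without new protein synthesis, and many of their mRNAs are short lived.

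The counts cannot show the S80A substitution, because reads are summed over the whole gene. The normalised read count of NFKB1, which is the read count divided by the relative effective library size, was 1091, 999.3 and 947.8 in untreated WT cells and 1039, 863 and 993 in untreated S80A cells. After TNFα it was 2540, 2298 and 2508 in WT cells and 3198, 2803 and 2545 in S80A cells. All 8 HEK293T markers examined were detected, with summed normalised counts of 6035 to 8328 per library and CDH2 the most abundant. One of them, the neurofilament gene NEFM, separated the lines: it had 1774 to 2165 reads in each WT library and 3 to 6 in each S80A library. CDH2 and KRT18 were higher in S80A cells in both states, and NEFM, CDH2, KRT18 and COL1A1 are named after their values were seen. The 8 fibroblast markers summed to 141 to 337 normalised counts, mostly COL1A1, and the 8 leukocyte markers to 60.3 to 97.6, with CD68 the most abundant. PTPRC, CD3E and MS4A1 had no read in any of the 12 libraries. COL1A1 was also lower in S80A than in WT cells, with a log2 fold change of -1.205 ± 0.12 (SE) in untreated cells (edgeR quasi-likelihood test, Benjamini-Hochberg adjusted p = 3.55e-05). It was the 1 called of 3 tested fibroblast markers, the others being COL3A1 (-0.739 ± 0.366) and PDGFRA (0.40 ± 0.268).

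Replicate 2 of the untreated S80A cells stood apart from its group. Its counts gave a chi-square per gene of 38.2 against replicate 1 and 22.4 against replicate 3, while the other replicate pairs gave 2.9 to 16.3. It was also low in GC-rich transcripts: among the 10% of tested genes with the highest exonic GC content, the median deviation from the mean of the 12 libraries was -0.13 on the log2 CPM scale. That value was -0.10, -0.10 and 0.01 in the TNFα-treated WT libraries and 0.09, 0.04 and 0.09 in the TNFα-treated S80A libraries. Treated WT replicate 3 also differed from replicates 1 and 2 of its group. Its chi-square per gene was 13.6 and 14.3 against them, beside 2.96 between replicates 1 and 2. Among the 10% of tested genes with the lowest GC content, its median deviation was -0.17, beside 0.17 and 0.21 in replicates 1 and 2. JUND, JUNB and IER2 have exonic GC contents of 69.9%, 64.9% and 63.0% and belong to those GC-rich genes, so their fold changes are also given after a correction for GC content in each library.

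**Figure D1:**
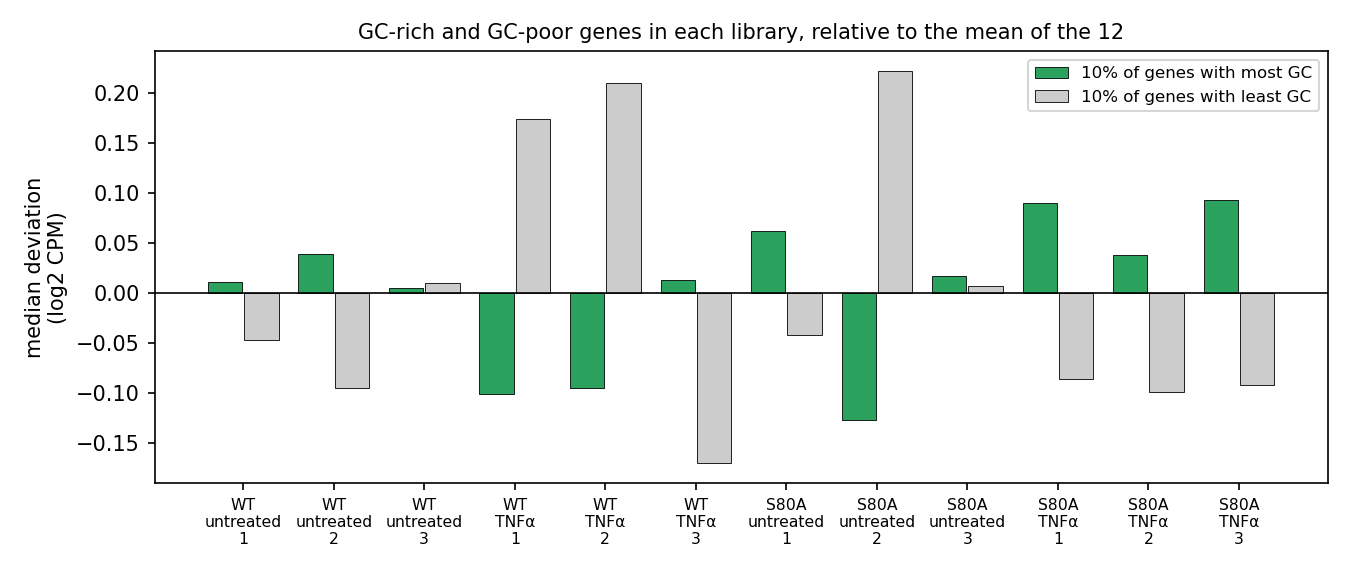
Median deviation of GC-rich and GC-poor genes in each of the 12 libraries, in log2 CPM relative to the mean of all libraries (green, the 10% of tested genes with the highest exonic GC; grey, the 10% with the lowest). GC-rich genes sat at -0.13 in untreated S80A replicate 2, at -0.10 in replicates 1 and 2 of TNFα-treated WT cells, and at 0.04 to 0.09 in TNFα-treated S80A cells.

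Upstream sequence is shown for JUN, JUND and ATF3, which rose with TNFα in both genotypes and hold TRE- or CRE-like letters, and for EGR1, which holds the serum response element core. Each line gives the 250 bases before the RefSeq transcript start (GRCh38.p14) on the strand of the gene, with the matched motif in capitals. The windows are chr1:58784048-58784297 on the minus strand for JUN, chr19:18281623-18281872 on the minus strand for JUND, chr1:212565157-212565406 on the plus strand for the more upstream of 2 ATF3 starts, and chr5:138465229-138465478 on the plus strand for EGR1.
JUN: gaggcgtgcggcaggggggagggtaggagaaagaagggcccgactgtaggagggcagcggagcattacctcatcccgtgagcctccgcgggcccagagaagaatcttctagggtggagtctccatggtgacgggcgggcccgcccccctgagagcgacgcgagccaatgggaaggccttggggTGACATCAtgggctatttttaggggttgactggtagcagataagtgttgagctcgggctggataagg
JUND: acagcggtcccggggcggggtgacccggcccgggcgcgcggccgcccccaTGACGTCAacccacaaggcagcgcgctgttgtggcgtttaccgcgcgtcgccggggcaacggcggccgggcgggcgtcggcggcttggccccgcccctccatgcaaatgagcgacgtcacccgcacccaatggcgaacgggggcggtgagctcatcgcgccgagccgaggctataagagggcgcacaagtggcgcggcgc
ATF3: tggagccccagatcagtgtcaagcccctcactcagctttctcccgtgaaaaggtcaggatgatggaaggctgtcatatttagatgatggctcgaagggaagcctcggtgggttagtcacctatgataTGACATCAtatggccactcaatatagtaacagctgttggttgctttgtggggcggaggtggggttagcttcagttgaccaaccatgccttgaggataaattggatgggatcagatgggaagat
EGR1: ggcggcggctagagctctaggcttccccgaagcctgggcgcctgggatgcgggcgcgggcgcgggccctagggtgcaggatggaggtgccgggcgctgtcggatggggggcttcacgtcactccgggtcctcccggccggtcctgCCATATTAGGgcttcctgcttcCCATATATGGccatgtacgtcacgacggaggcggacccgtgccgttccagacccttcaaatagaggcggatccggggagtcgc

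The JUN window holds TGACATCA with its first base at -67 from the start, and the ATF3 window holds the same 8 letters at -123. JUND holds the CRE letters TGACGTCA at -200, and EGR1 holds a pair of CArG boxes, the core that serum response factor binds, at -105 and -83. FOSL2 holds the TRE letters TGACTCA at position 5 after its start. Searched on both strands from 250 bases before to 50 after the start, the TRE letters TGANTCA were in 7.71% of 35116 RefSeq promoters and TGACGTCA in 1.85%. TGACNTCA, which includes every TGACGTCA match, was in 7.72%, and the CArG box in 1.29%. None of these letters was in the windows of JUNB, FOS, FOSB or IER2, and the κB consensus was in none of the 9 genes' windows, against 5.91% of all promoters. In a wider window of 2000 bases centred on the start, which 30.4% of promoters match, 6 of the 9 genes had a κB match: JUN at -990, JUNB at -432, IER2 at -429, EGR1 at 413, FOSB at 480 and FOSL2 at 440. Genes with and without a TNFα call are among them. The JUNB match (chr19:12791054-12791063) is shown with 10 bases to each side on the strand of the gene, with the match in capitals. The κB consensus fits the reverse complement of these capitals, and the match is shown since JUNB had the largest TNFα response of the 10 genes.
JUNB: tctgctttttGGGGTCTCCCaatggattgt

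JUN, JUNB, JUND and ATF3 rose with TNFα in both genotypes, and none of the other 6 genes passed the test in either. In WT cells 4 of the 10 genes were called, against 0.688% of all tested genes. In S80A cells 4 of the 10 were called, against 1.26%. The 10 genes and the related lists below were chosen with earlier results known, so these shares are no test of an excess. The median log2 fold change of the 10 genes was 0.35 in WT and 0.30 in S80A cells, beside 0.00 over all tested genes in both. A gene was called where edgeR's quasi-likelihood F test gave it a p under 0.05 after Benjamini-Hochberg adjustment over all tested genes. All 3 libraries of a group lay above or below all 3 of the other for 12.7% of tested genes with TNFα in WT cells, 14.4% with TNFα in S80A cells, 25% between untreated genotypes and 26.2% between treated genotypes (10% by chance for 3 against 3), so such a separation of a gene below is not rare. Besides JUN, JUNB, JUND and ATF3, the uncalled FOSL2 separated upward and the uncalled FOSB and EGR1 downward with TNFα in WT cells. Each group enters 2 of the 4 pairwise comparisons, so their values are given side by side and not as independent measurements.

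**Figure D2:**
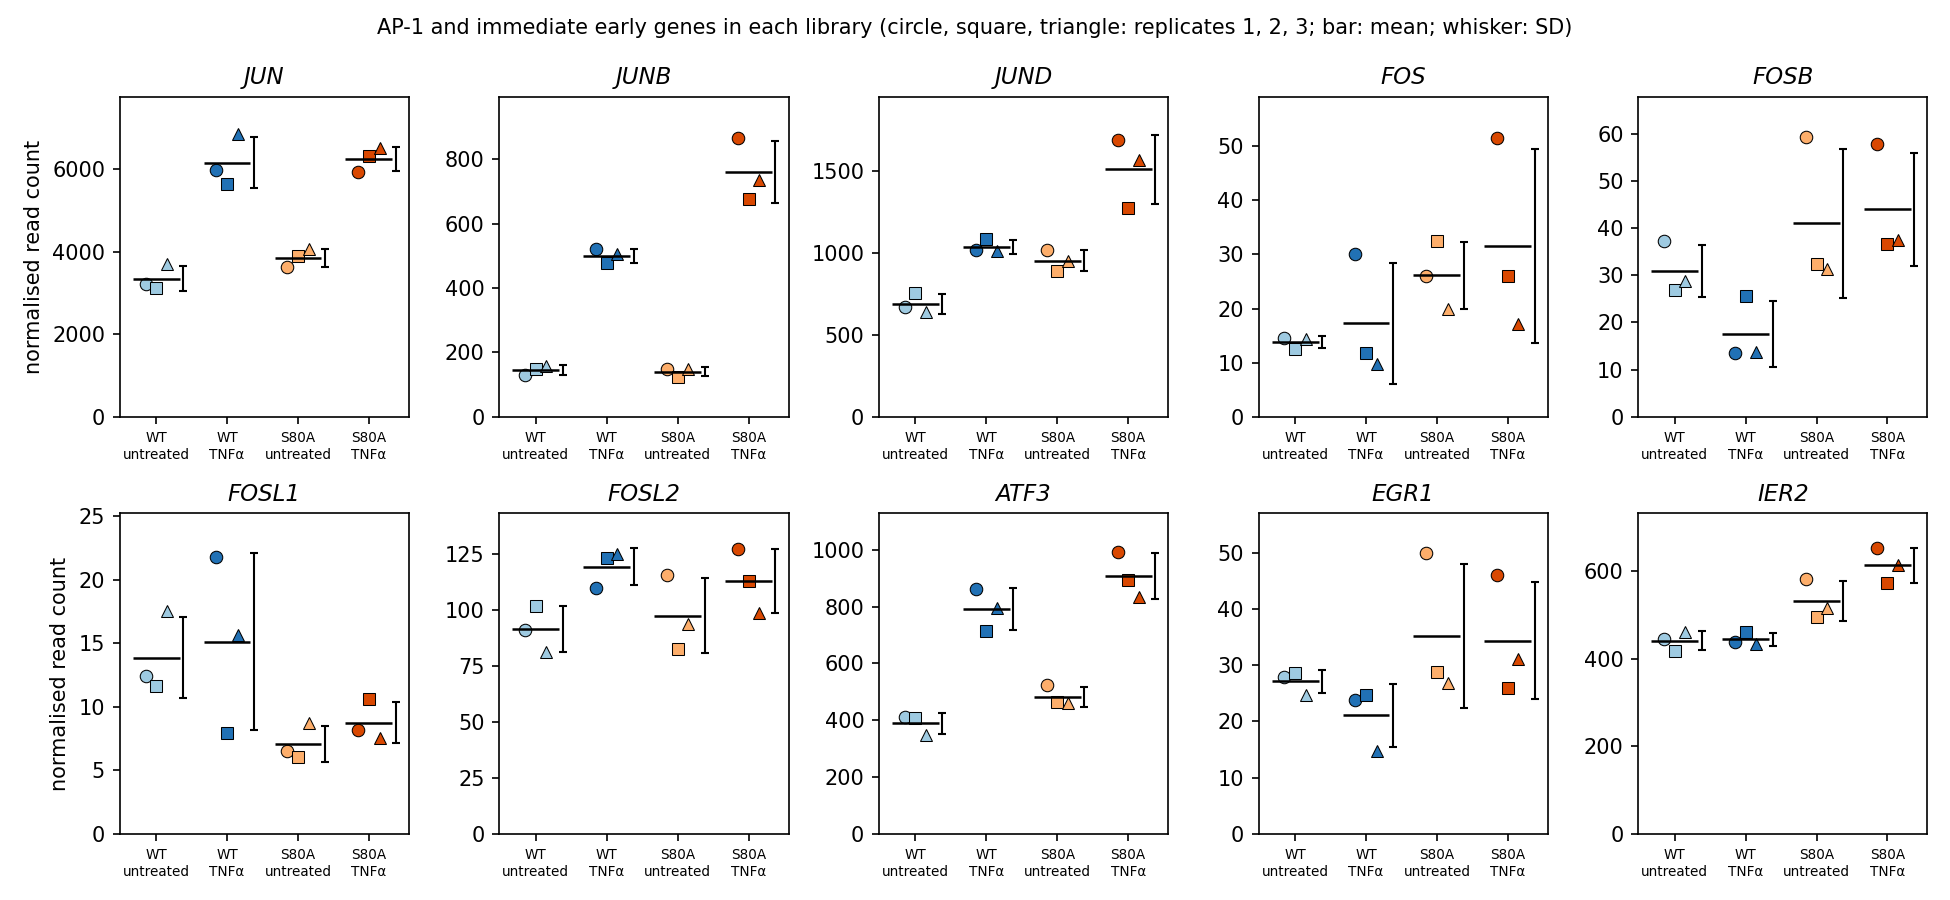
Normalised read count of each of the 10 genes in each library (vertical axis from 0, own scale per gene; circles, squares and triangles are replicates 1, 2 and 3; horizontal bars are means and whiskers SD, n = 3). JUN, JUNB, JUND and ATF3 were higher in every TNFα-treated library than in any untreated library of the same genotype, a separation that 12.7% of tested genes had in WT and 14.4% in S80A cells, while FOS, FOSB, FOSL1 and EGR1 stayed at 60 normalised counts or fewer.

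JUN encodes c-Jun, the subunit phosphorylated by JNK, and lies at chr1:58776845-58784048 (GRCh38, minus strand) with a single-exon canonical transcript. Normalised JUN counts were 3210, 3127 and 3690 in untreated WT cells and 5965, 5648 and 6860 after TNFα. In S80A cells it was 3618, 3883 and 4053 untreated and 5929, 6306 and 6502 after TNFα. Treated and untreated libraries did not overlap in either genotype (12.7% of tested genes in WT and 14.4% in S80A cells), and the treated S80A libraries lay within the range of the treated WT libraries. JUN rose by a log2 fold change of 0.88 ± 0.09 (SE) in WT cells (edgeR quasi-likelihood test, Benjamini-Hochberg adjusted p = 6.46e-05) and 0.70 ± 0.09 in S80A cells (adjusted p = 0.000473 in the same edgeR test). Between untreated genotypes the JUN difference was 0.205 ± 0.089 and not called (edgeR, Benjamini-Hochberg adjusted p = 0.217), and with GC correction it was 0.27 (edgeR adjusted p = 0.05679; range over its 21 alternatives 0.01859 to 0.5436, with 1 of them called). The genotypes differed by 0.02 ± 0.09 after TNFα, with a 95% interval of -0.17 to 0.21, and this small value changed sign with GC correction (-0.01).

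JUNB encodes a Jun protein that can restrain as well as assist c-Jun, and lies at chr19:12791486-12793315 on the plus strand, also with 1 exon. Its normalised count was 129, 149 and 159 in untreated WT cells and 148, 125 and 148 in untreated S80A cells. After TNFα it was 520, 477 and 504 in WT cells and 867, 677 and 735 in S80A cells. The untreated groups overlapped, and all 3 treated S80A libraries were above all 3 treated WT libraries, among the 26.2% of tested genes that separated there. JUNB rose 3.43-fold in WT cells, a log2 fold change of 1.78 ± 0.12 (SE; edgeR quasi-likelihood test, Benjamini-Hochberg adjusted p = 8.33e-07), and 5.39-fold in S80A cells, a log2 fold change of 2.43 ± 0.12 (adjusted p = 1.19e-08 in the same edgeR test). After TNFα it was 1.52-fold higher in S80A than in WT cells, a log2 fold change of 0.60 ± 0.11 (edgeR, Benjamini-Hochberg adjusted p = 0.00447). With GC correction the JUNB log2 fold changes were 1.86 and 2.34 for TNFα in WT and S80A cells, and -0.02 untreated and 0.47 after TNFα for S80A against WT. HOOK2 overlaps JUNB on the opposite strand, and the strand setting of the read counting is not given in the sources used here. HOOK2 itself had 241 to 369 normalised counts per library and no call in any comparison, and JUNB counts could include its reads.

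JUND encodes the Jun protein that many cells make without a stimulus, and lies at chr19:18279694-18281622 on the minus strand. JUND had normalised counts of 669, 754 and 639 in untreated WT cells and 1018, 1082 and 1008 after TNFα. In S80A cells it was 1017, 888 and 950 untreated and 1688, 1275 and 1565 after TNFα. All S80A libraries were above the WT libraries of the same treatment (25% of tested genes separated untreated and 26.2% after TNFα), and replicate 1 of the untreated S80A cells reached the range of the treated WT libraries. JUND rose by a log2 fold change of 0.59 ± 0.105 (SE) with TNFα in WT cells (edgeR quasi-likelihood test, Benjamini-Hochberg adjusted p = 0.0123) and 0.67 ± 0.104 in S80A cells (adjusted p = 0.00286 in the same edgeR test). It was higher in S80A than in WT cells by 0.47 ± 0.105 untreated (edgeR, Benjamini-Hochberg adjusted p = 0.0167) and by 0.54 ± 0.104 after TNFα (edgeR, adjusted p = 0.00601). With GC correction the TNFα response of JUND was 0.70 in WT and 0.57 in S80A cells, the opposite order to the uncorrected values, and the untreated genotype difference was 0.47. Several JUND calls were lost in alternatives although the fold changes stayed close. The WT response lost its call without untreated WT replicate 1 or 3 or treated WT replicate 2 (log2 fold change 0.57, 0.54 and 0.56; edgeR, Benjamini-Hochberg adjusted p = 0.07569, 0.0985 and 0.07669; range over its 21 alternatives 7.06e-05 to 0.0985). The S80A response lost its call when the 6 S80A samples were fitted alone (log2 fold change 0.66; edgeR adjusted p = 0.0591, the highest of its 21 alternatives, the lowest being 5.92e-07). The untreated genotype difference lost its call without untreated WT replicate 1 or 3 or untreated S80A replicate 1 or 3 (log2 fold change 0.45, 0.42, 0.42 and 0.47; edgeR adjusted p = 0.06409, 0.08662, 0.05124 and 0.05231; range over its 21 alternatives 0.00149 to 0.0866). After TNFα, the genotype difference in JUND was 0.35 with GC correction, with an edgeR adjusted p of 0.02167 (range over its 21 alternatives 5.15e-05 to 0.0359).

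The 4 Fos genes were at low counts. FOS, which encodes c-Fos and lies at chr14:75278826-75282230, had 10 to 57 reads per library, with normalised counts of 14.5, 12.5 and 14.4 in untreated WT cells and 30.1, 11.9 and 9.8 after TNFα. In S80A cells FOS had 26.0, 32.4 and 20.0 untreated and 51.5, 26.0 and 17.2 after TNFα. Replicate 1 was the highest FOS library of both treated groups, and each treated group overlapped its untreated group. The FOS log2 fold change with TNFα was 0.31 ± 0.49 (SE) in WT and 0.33 ± 0.40 in S80A cells, neither of them called. Without replicate 1 of the treated group, the first became -0.34 and the second -0.26. Between genotypes the FOS log2 fold change was 0.894 ± 0.454 untreated, where all S80A libraries were above all WT libraries (25% of tested genes separated there), and 0.914 ± 0.426 after TNFα, neither of them called. With 1 library left out the treated value ran from 0.32 (without treated S80A replicate 1) to 1.57 (without treated WT replicate 1).

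FOSB encodes FosB and its truncated form ΔFosB, and lies at chr19:45467995-45475179. Its normalised count was 37.3, 26.8 and 28.9 in untreated WT cells and 13.5, 25.7 and 13.7 after TNFα. In S80A cells it was 59.3, 32.4 and 31.2 untreated and 57.9, 36.6 and 37.6 after TNFα. Replicate 1 was the highest FOSB library in both S80A groups, and every treated S80A library was above every treated WT library (26.2% of tested genes separated there). With TNFα the FOSB log2 fold change was -0.801 ± 0.348 (SE) in WT cells and 0.109 ± 0.293 in S80A cells, neither of them called, with group means of 30.99 and 17.63 in WT and 41 and 44 in S80A cells. After TNFα, FOSB was 2.51-fold higher in S80A than in WT cells, a log2 fold change of 1.33 ± 0.33 (SE; edgeR quasi-likelihood test, Benjamini-Hochberg adjusted p = 0.0285). The call was lost without treated WT replicate 1 or 3 or treated S80A replicate 1 (log2 fold change 1.17, 1.18 and 1.06; edgeR adjusted p = 0.1105, 0.06987 and 0.1305; range over its 21 alternatives 0.0045 to 0.1305). FOSB overlaps ERCC1 on the opposite strand, which had 668 to 919 normalised counts per library and no call in any comparison. As the strand setting is not given, reads of FOSB and ERCC1 cannot be told apart in the overlap, and the FOSB counts could include ERCC1 reads.

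FOSL1 encodes Fra-1 and FOSL2 encodes Fra-2, Fos proteins without the transactivation domain of c-Fos. FOSL1 had 5 to 21 reads per library, with a mean normalised count of 13.9 ± 3.2 (SD, n = 3) in untreated WT and 7.06 ± 1.43 in untreated S80A cells. The FOSL1 log2 fold change of S80A against WT was -0.93 ± 0.39 (SE) untreated, where the libraries separated, and -0.79 ± 0.38 after TNFα, and neither was called (edgeR quasi-likelihood test, Benjamini-Hochberg adjusted p = 0.196 and 0.238). The treated FOSL1 value ran from -1.1 to -0.44 with 1 library left out, the last without treated WT replicate 1. FOSL2 was the most abundant Fos gene, with 69 to 141 reads per library. Its mean normalised count was 91.5 ± 10.3 (SD, n = 3) untreated and 119.6 ± 8.3 after TNFα in WT cells, and 97.5 ± 16.8 and 113 ± 14.4 in S80A cells. Its log2 fold change with TNFα was 0.38 ± 0.16 (SE) in WT (edgeR, Benjamini-Hochberg adjusted p = 0.688) and 0.21 ± 0.16 in S80A cells (edgeR, adjusted p = 0.706), and the S80A value ran from 0.11 to 0.35 with 1 library left out. FOSL2 overlaps the antisense gene FOSL2-AS1 and an unnamed gene on its own strand, and its counts could include their reads.

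ATF3 encodes a stress-induced bZIP protein that pairs with Jun proteins, and lies at chr1:212565334-212620777 on the plus strand. Libraries of untreated WT cells had normalised ATF3 counts of 410, 409 and 346, and WT libraries after TNFα had 862, 714 and 796. In S80A cells it was 524, 464 and 460 untreated and 993, 894 and 833 after TNFα. The treated libraries were above all untreated libraries in both genotypes. ATF3 rose by a log2 fold change of 1.02 ± 0.11 (SE) in WT cells (edgeR quasi-likelihood test, Benjamini-Hochberg adjusted p = 7.54e-05) and 0.91 ± 0.105 in S80A cells (adjusted p = 0.000157 in the same edgeR test). All 3 untreated S80A libraries were above all 3 untreated WT libraries, a separation in either direction that 25% of all tested genes had in this comparison (10% by chance for 3 against 3), and the log2 fold change of 0.31 ± 0.11 was not called (edgeR, Benjamini-Hochberg adjusted p = 0.109). That difference was called with the replicate block (0.31, edgeR adjusted p = 0.04403). With GC correction it was 0.34 and also called (edgeR adjusted p = 0.04664, range over its 21 alternatives 0.01085 to 0.3515).

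EGR1 encodes a zinc finger transcription factor induced by serum and growth factors, and lies at chr5:138465479-138469303. Its normalised count was 27.95, 28.63 and 24.75 in untreated WT cells and 23.9, 24.7 and 14.7 after TNFα. In S80A cells it was 50.04, 28.83 and 26.91 untreated and 46.1, 26.0 and 31.1 after TNFα. As for FOSB, replicate 1 was the highest library in both S80A groups, and the other libraries of these groups lay at 25.96 to 31.12. All treated S80A libraries were above all treated WT libraries, as for 26.2% of tested genes in either direction. EGR1 was not called in any comparison. Its log2 fold change of S80A against WT after TNFα was 0.73 ± 0.31 (SE; edgeR quasi-likelihood test, Benjamini-Hochberg adjusted p = 0.175), and it ran from 0.44 (without treated S80A replicate 1) to 0.89 with 1 library left out.

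IER2 encodes a nuclear protein of the immediate early response, and lies at chr19:13150411-13154911. Its normalised count was 445, 419 and 460 in untreated WT cells and 437, 461 and 434 after TNFα, so the WT groups overlapped. In S80A cells it was 583, 495 and 516 untreated and 653, 573 and 615 after TNFα. Every S80A library was above every WT library, where 25% of tested genes separated untreated and 26.2% after TNFα. After TNFα, IER2 was 1.38-fold higher in S80A than in WT cells, a log2 fold change of 0.47 ± 0.09 (SE; edgeR quasi-likelihood test, Benjamini-Hochberg adjusted p = 0.0066), which was 0.36 with GC correction and still called. The untreated difference was 0.27 ± 0.09 and not called (edgeR, Benjamini-Hochberg adjusted p = 0.101), and with GC correction it was 0.32 and called (edgeR adjusted p = 0.03023; range over its 21 alternatives 0.0245 to 0.328). With TNFα the IER2 log2 fold change was 0.01 ± 0.09 in WT and 0.21 ± 0.09 in S80A cells, neither of them called, and 0.08 and 0.12 with GC correction. The 2 unnamed genes that overlap IER2 lie on the opposite strand, and IER2 counts could include their reads.

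Between the genotypes, JUND was higher in untreated S80A cells, and JUNB, JUND, FOSB and IER2 were higher in S80A cells after TNFα. In untreated cells 1 of the 10 genes was called, against 6.26% of all tested genes. After TNFα 4 of the 10 were called, against 7.36%. With GC correction 3 of the 10 were called in untreated cells (JUND, ATF3 and IER2) and the same 4 after TNFα, beside 8.7% of the 12716 genes tested under that correction in each comparison. FOS, FOSL1, FOSL2 and EGR1 were not called between the genotypes in either state or with GC correction.

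The difference of the TNFα response between the genotypes was tested by the interaction term. None of the 10 genes was called, against 0% of all tested genes. The edgeR fit called 0 of 14383 genes, 520 had an unadjusted p under 0.05, and DESeq2 also called 0. JUNB had the smallest unadjusted p of the 10 genes, 0.00165 in the edgeR fit, with an interaction of 0.65 ± 0.17 on the log2 scale and a Benjamini-Hochberg adjusted p of 0.911. Its interaction was 0.49 with GC correction. The interaction of FOSB was 0.91 ± 0.46, that of JUN -0.18 ± 0.13 and that of ATF3 -0.11 ± 0.15, with edgeR adjusted p of 0.911, 0.911 and 0.925. With GC correction the interactions were 0.80 for FOSB, -0.29 for JUN and -0.15 for ATF3. With 1 library left out the JUN interaction ran from -0.26 to -0.10 and that of ATF3 from -0.19 to -0.04. For JUND it was 0.07 ± 0.15 and changed sign with GC correction (-0.13).

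**Figure D3:**
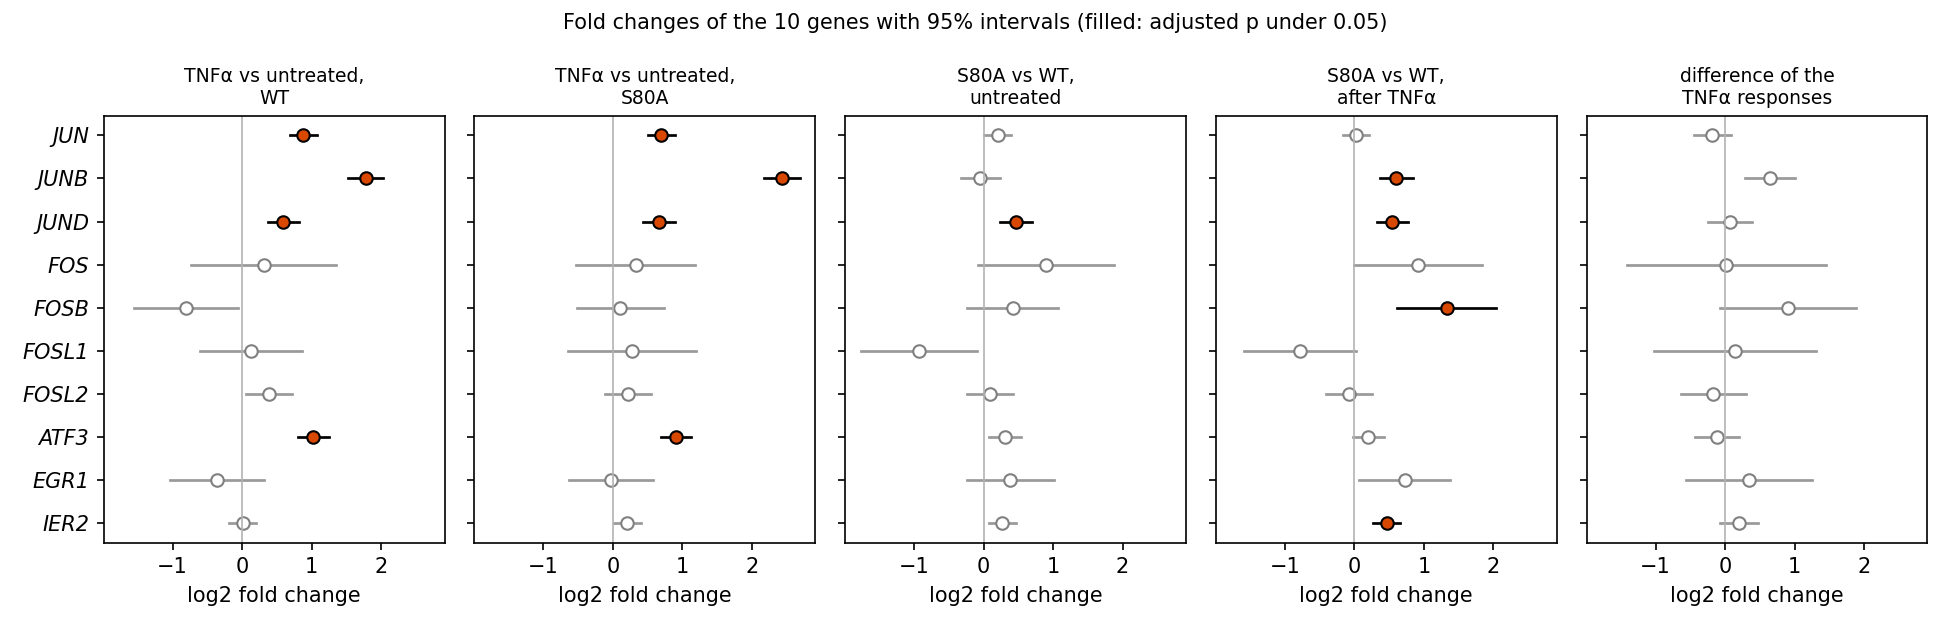
Log2 fold changes of the 10 genes in the 5 comparisons with 95% intervals from the edgeR fit (filled points have an adjusted p under 0.05, open points do not). JUN, JUNB, JUND and ATF3 are filled in both TNFα panels, JUND in the untreated genotype panel, JUNB, JUND, FOSB and IER2 in the treated genotype panel, and none in the panel of the interaction.

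Levels of different genes were compared as CPM per kilobase of annotated exon. On this scale JUN was the highest of the 10 genes in every group, at 49.7 ± 4.52 (SD, n = 3) in untreated WT and 57.3 ± 3.27 in untreated S80A cells, followed by JUND at 19.2 ± 1.67 and 26.6 ± 1.81. IER2 (7.73 ± 0.37), ATF3 (5.24 ± 0.49) and JUNB (4.30 ± 0.44) formed a middle tier in untreated WT cells, in which ATF3 and JUNB differed by little more than their SDs. FOSL2, EGR1, FOSL1, FOSB and FOS were at 0.23 to 0.69 there. After TNFα, JUNB reached 14.7 ± 0.64 in WT and 22.4 ± 2.87 in S80A cells beside 10.7 ± 1.0 and 12.2 ± 1.09 for ATF3. The order of these genes depended on the length used: per kilobase of the longest transcript, ATF3 was at 9.96 ± 0.93 in untreated WT cells, above IER2 (8.11 ± 0.384), and after TNFα at 20.3 ± 1.91 in WT cells, above JUNB (14.7 ± 0.64). In treated S80A cells ATF3 (23.2 ± 2.07) and JUNB (22.4 ± 2.87) then lay within their SDs.

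Of the summed Jun and Fos level per length, the 3 Jun genes made up 97.8% ± 0.11 (SD, n = 3) in untreated WT cells and 98.7% ± 0.21 after TNFα. JUNB took 5.73% ± 0.38 untreated and 10.8% ± 0.63 after TNFα in WT cells, and 4.61% ± 0.38 and 14.0% ± 1.39 in S80A cells. JUN took 66.4% ± 3.09 and 66.7% ± 2.53 in WT cells, and 63.8% ± 2.71 and 58.3% ± 4.08 in S80A cells. JUND took 25.7% ± 3.03 and 21.2% ± 2.04 in WT, and 29.6% ± 2.12 and 26.4% ± 2.66 in S80A cells. These are shares of mRNA, not of protein, and were not tested.

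**Figure D4:**
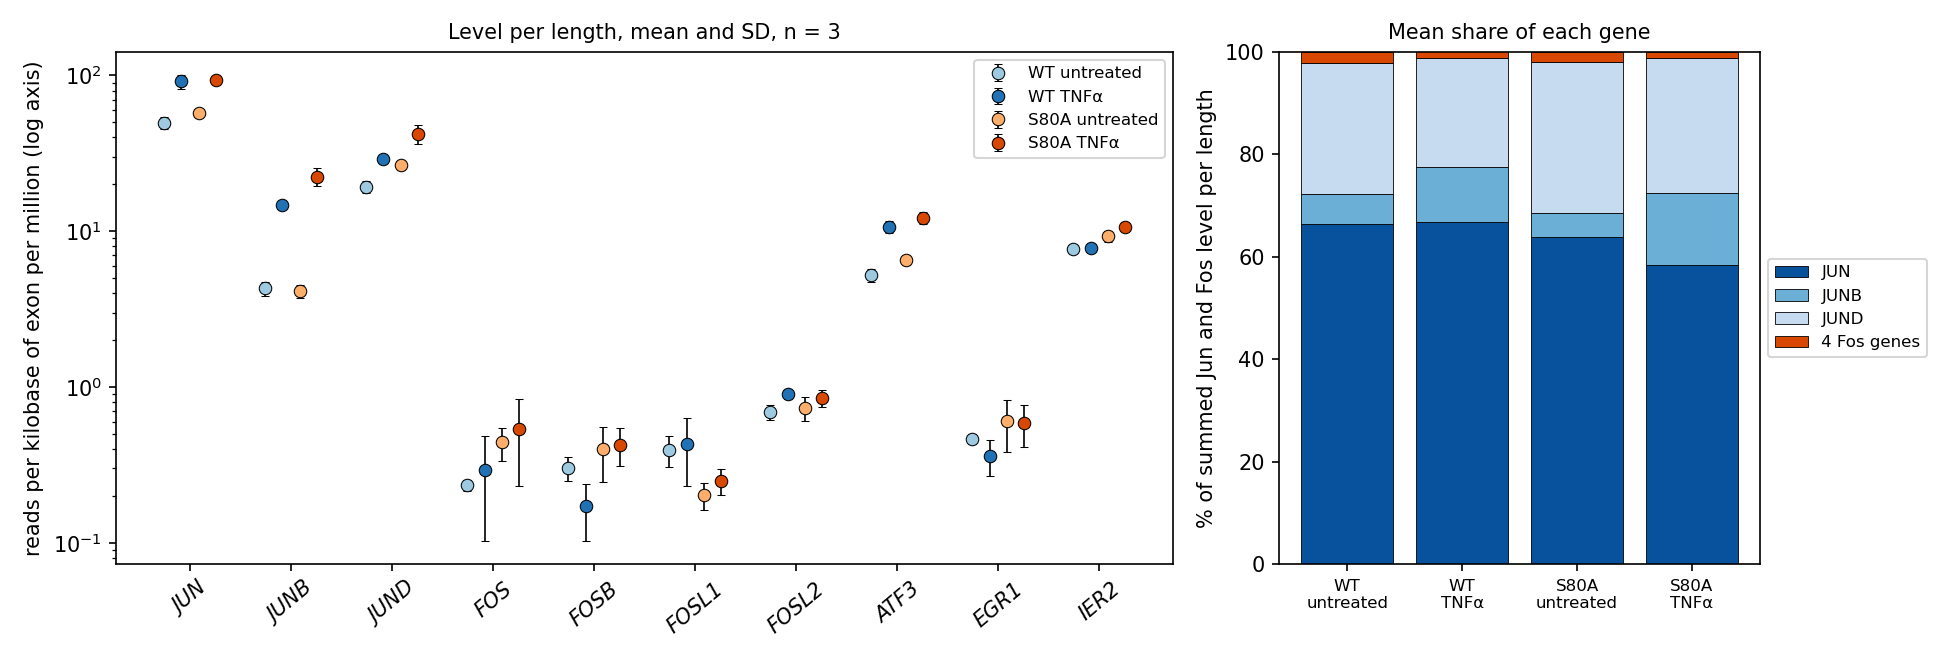
Left, CPM per kilobase of annotated exon for the 10 genes in the 4 groups (log axis; points are means and whiskers SD, n = 3). Right, mean share of JUN, JUNB, JUND and the 4 Fos genes in the summed Jun and Fos level: JUNB takes 5.73% and 10.8% in untreated and treated WT cells and 4.61% and 14.0% in S80A cells, and the Fos genes are a thin band at the top.

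Among 50 other immediate early genes, 45 were tested. With TNFα 8 rose and 1 fell in WT cells, against 0.688% of all tested genes called, and 8 rose and 2 fell in S80A cells, against 1.26%. Their median log2 fold change was 0.09 in WT and 0.17 in S80A cells, beside 0.00 over all tested genes in both. IER3, an apoptosis regulator, had the largest change, with means of 101.8 ± 6.3 (SD, n = 3) and 925 ± 84 normalised counts in untreated and treated WT cells and 88.4 ± 4.0 and 995 ± 74.8 in S80A cells. GADD45B rose by log2 fold changes of 1.74 ± 0.20 (SE) and 1.69 ± 0.19 in WT and S80A cells, PHLDA1 by 1.299 ± 0.213 and 1.24 ± 0.20, and ZFP36L1, which encodes an mRNA decay factor, by 1.09 ± 0.09 and 1.01 ± 0.09. The genes that fell were ID3 in both genotypes and ID2 in S80A cells, inhibitors of basic helix-loop-helix proteins, named after their values were seen. The log2 fold change of ID3 was -0.485 in WT and -0.444 in S80A cells, and that of ID2 -0.754 in S80A cells and -0.43 in WT cells, the last without a call. The interaction of ID2 was not called. Between genotypes, where 6.26% and 7.36% of all tested genes were called untreated and after TNFα, SPRY2 was higher and DUSP2 and MYC lower in untreated S80A cells. After TNFα, KLF4, GADD45A, SPRY2 and PPP1R15A were higher in S80A cells, and MYC, named for that comparison after its value was seen, was lower. MYC was at 2699 ± 13 (SD, n = 3) normalised counts in untreated WT and 2007 ± 47 in untreated S80A cells.

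Of 31 bZIP genes outside the 10, which encode possible dimer partners or relatives, 28 were tested. CREB5 rose with TNFα in WT cells (log2 fold change 0.89 ± 0.16, SE) and in S80A cells (0.79 ± 0.16), and MAFF, a small Maf protein gene, passed the test in S80A cells (1.29 ± 0.23; 0.48 ± 0.24 in WT cells). MAF was higher in S80A than in WT cells both untreated (0.945 ± 0.125) and after TNFα (0.73 ± 0.13), and ATF5 after TNFα (0.39 ± 0.11). The median over the list was 0.10 and 0.05 for TNFα in WT and S80A cells. None of the 6 genes for SRF and its cofactors was called by edgeR in any comparison, where 0.688%, 1.26%, 6.26%, 7.36% and 0% of all tested genes were called, so a list of this size can hold no call without differing from other genes.

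All 33 genes of the MAP kinase route that leads to AP-1 were tested. MAP3K8, which encodes the kinase TPL2, rose with TNFα by 1.201 ± 0.126 (SE, log2) in WT and 1.49 ± 0.13 in S80A cells. MAP2K6, which encodes an activator of p38, fell by 0.65 in S80A cells and was at -0.52 ± 0.13 without a call in WT cells. It was also lower in S80A than in WT cells, by log2 fold changes of -0.90 ± 0.13 untreated and -1.03 ± 0.14 after TNFα. In untreated cells 4 of the 33 were called, against 6.26% of all tested genes: MAPK11 was higher in S80A cells, and MAP2K6, MAPK7 and MAP2K3 were lower. After TNFα 8 of the 33 were called, against 7.36%. Of these, 4 were higher (MAPK11, MAP2K5, and, named after their values were seen, MAP2K2 and MAPKAPK2) and 4 lower (MAP2K6, MAPK7, and, named likewise, MAP2K3 and MAPK8, the JNK1 gene).

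Of 27 textbook AP-1 target genes 16 were tested. Of these, 3 rose with TNFα in WT and 4 in S80A cells, against 0.688% and 1.26% of all tested genes called, and none fell. IL8, a chemokine gene, had 0, 2 and 0 reads in untreated WT cells, 46, 45 and 35 after TNFα, 7, 2 and 4 in untreated S80A cells and 244, 114 and 160 after TNFα. PLAU, the urokinase gene, rose 3.32-fold in WT and 5.07-fold in S80A cells, and TNC, the tenascin C gene, 5.24-fold and 3.65-fold. VIM rose 1.34-fold in S80A cells and was at 1.27-fold without a call in WT cells, with an interaction of 0.072 ± 0.126 on the log2 scale. After TNFα, where 7.36% of all tested genes were called, IL8, PLAU, TNC and TIMP1 were higher in S80A than in WT cells and NQO1, named after its value was seen, was lower. TNC and TIMP1 were also higher untreated. Several of these genes are also NF-κB targets, so the list does not separate the factors.

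All 14 NF-κB feedback genes were tested, as a reference for the TNFα response, and 6 rose in WT and 9 in S80A cells, against 0.688% and 1.26% of all tested genes called, with medians of 1.21 and 1.39 on the log2 scale. RELB rose 35.4-fold and 44.2-fold, NFKBIA 11.5-fold and 12.7-fold, TNFAIP3 8.82-fold and 14.5-fold, and NFKB2 4.48-fold and 4.76-fold in WT and S80A cells. RELB, NFKBIA and TNFAIP3 were higher in S80A than in WT cells after TNFα, with log2 fold changes of 0.57 ± 0.10 (SE), 0.39 ± 0.085 and 0.68 ± 0.12. The median over the 14 genes was 0.19, with NFKB2 at 0.252 ± 0.08 and NFKB1 at 0.219 ± 0.097, neither of them called.

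**Figure D5:**
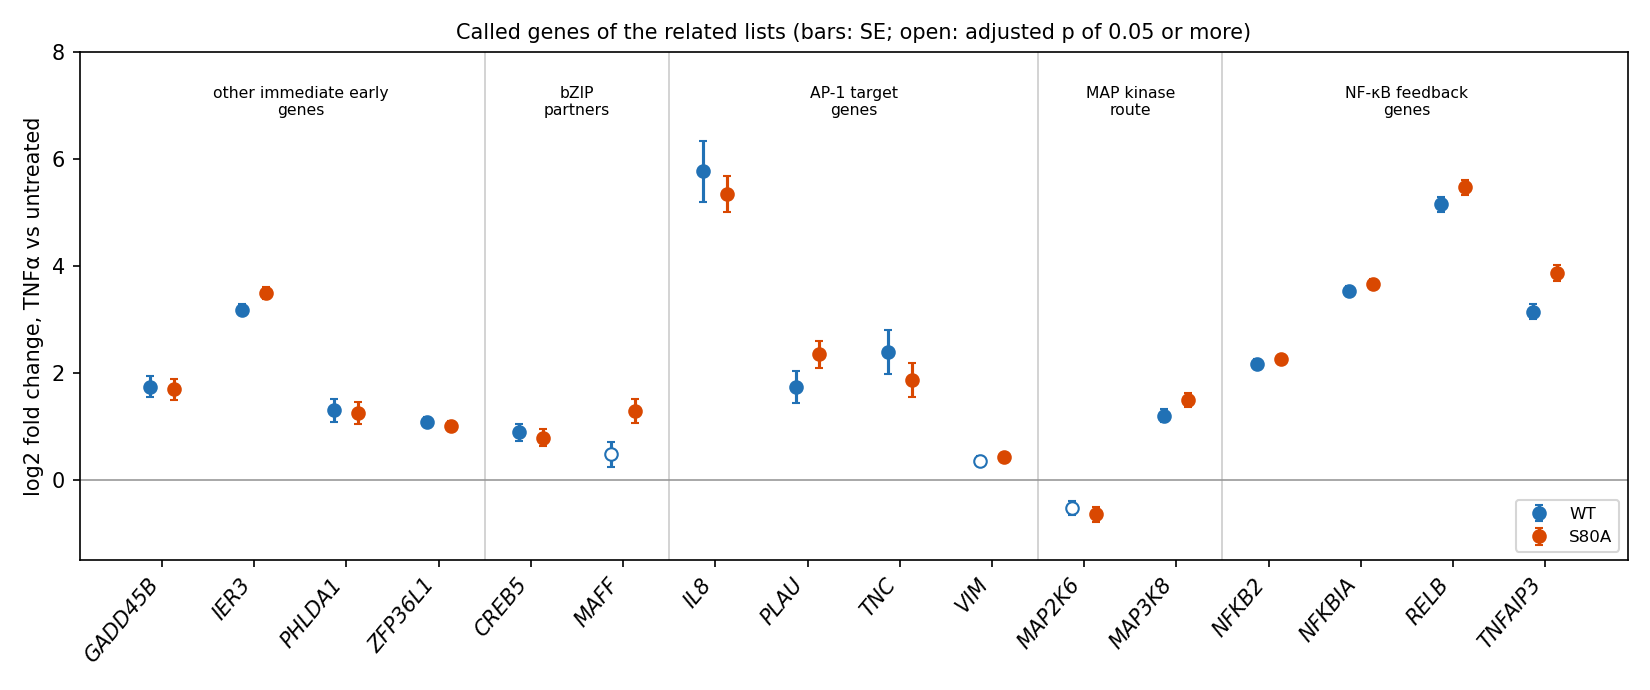
Log2 fold change with TNFα in WT (blue) and S80A (orange) cells for the named genes of the 5 related lists (points are estimates and bars SE; open points have an adjusted p of 0.05 or more). IER3 lies at 3.18 and 3.49 and RELB at 5.15 and 5.47; the IL8 estimate rests on 0, 2 and 0 reads in untreated WT cells.

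Over the 12 libraries, the tested genes with the highest Pearson correlation of log2 CPM with JUNB were TNFAIP3 (r = 0.991), VCAM1 (0.990) and CXCL10 (0.990). For JUN they were PLA2G4C (0.967), RELB (0.967) and NFKB2 (0.964), and for JUND PLAT (0.961), PIM3 (0.953) and PPP1R15A (0.952). ATF3 was most like DUSP1 (0.989), SAMD4A (0.979) and GADD45B (0.979). For IER2 the closest was PDZD4 (0.954), for EGR1 NUDT8 (0.968), for FOSL2 AREL1 (0.911), for FOS OSBPL10 (0.901), for FOSB LRRN2 (0.9) and for FOSL1 HLA-L (0.873). These values describe 12 libraries that fall into 4 groups, with the group differences included, and carry no test.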

How the data were processed

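RNA from 12 HEK293T samples (4 groups of 3) was sequenced by the authors as stranded poly(A) libraries with single-end 75 bp reads. The authors aligned the reads to GRCh38 with HISAT and deposited raw read counts per gene symbol from HTSeq-count; versions and counting options are not given in the sources used here. Of 33121 rows, 28 carried a date in place of a symbol and were not analysed. The deposited lists of differentially expressed genes, with fold changes, p-values and normalised signal, were not used.

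Counts were fitted in R 4.3.3 with edgeR 4.0.16 (TMM, filterByExpr with a minimum count of 10, quasi-likelihood F test, 1 mean per group over all 12 samples) and adjusted by Benjamini-Hochberg over all 14383 tested genes at a threshold of 0.05. Standard errors were taken as the log2 fold change divided by the square root of F. Normalised counts were divided by each library's effective size relative to the mean, and log2 CPM used a prior count of 2. Exon lengths and GC content came from GENCODE annotation on GRCh38 (88.4% of tested genes matched); promoters came from RefSeq (GRCh38.p14), in which 9 of the 10 genes matched.

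All 10 genes are named; from each related list, up to 4 called genes with the largest absolute log2 fold change and a mean of at least 1 CPM are named, and for each of the 10 the 3 genes of highest Pearson r were computed. The members and lists were chosen with earlier results of these data known. Alternatives were DESeq2 size factors, total counts, DESeq2 1.42.0, other filters, a replicate block, the 6 samples compared, an added fold threshold, each sample left out, and transcript length. GC correction (lowess of each library's deviations on GC, span 0.3, with the 12716 genes that have a GC value tested and adjusted over), the TGACNTCA letters and the wider κB window were chosen after seeing the data. Counted reads, 15624878 to 20889577 per sample, limit precision most for FOS, FOSB, FOSL1 and EGR1.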

Additional observations from a re-analysis of the deposited data

Results flagged for a closer look

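No value of the 10 genes met the criteria for a closer look: groups of 3 samples were not tested for outlying samples, and the interaction test called none of them.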

How the results depend on the processing

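Over the alternatives, no called value of the 10 genes changed sign. With a log2 fold change of at least 1 required in addition, 2 of the 10 genes stayed called for TNFα in WT cells, 1 for TNFα in S80A cells, 0 between untreated genotypes and 1 after TNFα, and of all genes 53, 64, 199 and 205. Between untreated genotypes JUND and ATF3 were called with the replicate block (edgeR adjusted p of ATF3 0.04403). With GC correction 3 of the 10 were called (JUND, ATF3 and IER2), and 4 with both, when JUN was added (0.27, edgeR adjusted p 0.01859). Calls over all genes rose as well in this comparison, from 900 (6.26% of 14383 tested) without either to 1106 with GC correction (8.7% of 12716 tested). With both, 1490 of these 12716 genes were called. Whether the calls added among the 10 went beyond that rise was not tested. For the replicate block alone, the number called over all genes is not given here, so its calls have no such share beside them. The ranges of adjusted p over the 21 alternatives were 0.01085 to 0.3515 for ATF3 and 0.01859 to 0.5436 for JUN. DESeq2 called 155 genes for TNFα in WT cells. The 6 samples alone gave 71 genes for TNFα in S80A cells and 456 between untreated genotypes, and GC correction with replicate block gave 280 and 1490. Leaving out 1 sample, 3 to 4, 4 to 4, 0 to 1 and 3 to 4 of the 10 genes were called in these 4 comparisons, and 65 to 145, 98 to 193, 356 to 1039 and 434 to 1646 of all genes. Values that changed sign were near 0 or from low counts. The FOS interaction was -0.01 with DESeq2, -0.01 with the replicate block, -0.05 with GC correction and -0.08 with both. IER2 in WT cells was -0.01 with total counts, JUN after TNFα -0.01 with GC correction and -0.01 with both, and the JUND interaction -0.13 and -0.13. With 1 sample left out, the ranges were -0.31 to 0.33 for EGR1, -0.26 to 0.62 for FOS and -0.15 to 0.49 for FOSB with TNFα in S80A cells, and -0.34 to 0.59 for FOS, -0.22 to 0.44 for FOSL1 and -0.03 to 0.04 for IER2 in WT cells. Between genotypes they were -0.18 to 0.01 for FOSL2 and -0.04 to 0.11 for JUN after TNFα, and -0.05 to 0.19 for FOSL2 and -0.12 to 0.03 for JUNB untreated. For the interaction they were -0.57 to 0.67 for FOS, -0.17 to 0.49 for FOSL1 and -0.01 to 0.18 for JUND. Samples of the same replicate number were not alike throughout: 5 of 12 pairs of the same number correlated above 0.1 (lowest -0.099, highest 0.495). Replicate 1 made up 4 of the 5 (0.212, 0.495, 0.338 and 0.251), a pattern whose cause was not tested, and 5 of 12 samples in all correlated best with their own number. The replicate block was therefore kept as an alternative. Allele and clone cannot be told apart, 3 samples per group limit the tests, mRNA levels do not give protein or phosphorylation, and 1 time point of 3 h can miss transient induction. The cause of the GC differences between libraries was not tested.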
